A study of Mus musculus with 4 samples.

Results

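The secretory pathway genes described here encode the machinery that carries new proteins into the endoplasmic reticulum (ER) and moves them between the ER and the Golgi. They were chosen by gene symbol alone: names starting with Sec13, Sec16, Sec22, Sec23, Sec24, Sec31, Sec61, Sec62, Sec63, Spcs or Tmed, names of Ssr or Srp followed by a number, and 16 named genes of the COPI coat, the Sar1 GTPases, the KDEL receptors, Mia3 and Preb. Of 18193 genes with a probe set of their own, 58 were members, and a further 4 (Sec61g, Srp54a, Srp54c and a Tmed10 pseudogene) were represented only by probe sets shared with other genes. The study used MC3T3-E1, an immortal preosteoblast line from the calvaria of newborn C57BL/6 mice, to find genes tied to osteogenic differentiation. Cultures were kept for 3 or 6 days in 1 of 2 media. Normal medium was MEM α plus 10% fetal bovine serum, and osteogenic medium further contained ascorbic acid 2-phosphate at 150 µM and beta-glycerophosphate at 10 mM. Total RNA of each of these 4 groups was measured on 1 Affymetrix Mouse Genome 430 2.0 array, so no difference at a single day has a replicate error or a p-value, and the labels do not say how many cultures an array represents.

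A protein bound for secretion is recognised as it leaves the ribosome by the signal recognition particle, is threaded through the Sec61 translocon and loses its signal peptide to signal peptidase. COPII-coated vesicles then carry it out of the ER, and COPI-coated vesicles return escaped ER proteins and cargo receptors from the Golgi. Osteoblasts rely on this route to secrete type I collagen, whose long procollagen needs the cargo receptor encoded by Mia3 to enter COPII carriers.

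Values below are signals, the deposited linear intensities after scaling of the arrays, and log2 differences between arrays. A signal under 57.8 was set to that floor, and a gene counted as measured in a comparison if either of the arrays compared exceeded it. Of the 58 members, 54 were above the floor on all 4 arrays. Srp54b was above it on 1, and the own probe sets of Tmed2, Tmed6 and Tmed11 on 0. Disagreement among a gene's probe sets put the error of a single log2 medium difference at 0.30 for day 3 and 0.29 for day 6, which covers probe error only. Arrays of bulk RNA cannot tell fewer cells of a type from less RNA per cell.

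The cells carried the osteoblast marker genes. All 6 osteoblast markers with a probe set of their own were above the floor on every array. Ibsp, the bone sialoprotein gene, differed most, with signals of 386 and 255 in normal medium at days 3 and 6 and 4468 and 11063 in osteogenic medium. Alpl (log2 medium differences 1.55 and 1.70) and Sp7 (0.69 and 0.38) were also higher at both days. Col1a1 (-0.21 and 0.026), Col1a2 (-0.26 and 0.067) and Sparc (-0.17 and 0.054) were lower at day 3 and near zero at day 6. The adipocyte markers Adipoq, Pparg, Fabp4 and Lpl were at the floor on all 4 arrays, as were 4 of 5 leukocyte and 4 of 5 endothelial markers. Of 6 chondrocyte markers 3 were above the floor on every array. The signals of all 6 summed to 3379 to 3631 in normal and 5968 to 8201 in osteogenic medium. Col2a1 (1.12 and 2.28) and Cnmd (1.36 and 1.33) were higher in osteogenic medium at both days. Sox9 differed by 0.060 and 0.22, Col9a1, under the floor on 1 array, by -0.28 and 0.42, and Acan and Matn1 were at the floor. The part of these chondrocyte markers in the results below was not tested. The smooth muscle list, 4 of whose 5 genes were above the floor on every array, summed to 47968 to 65556, and for skeletal muscle the sums were 365 to 447. On the osteogenic day 6 array the control probe set for the 5′ end of 18S ribosomal RNA had a deposited signal of 746, against 5202 to 9162 on the other arrays. Every comparison with that array carries this difference, whose part in the results was not tested.

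Few secretory pathway genes differed by 1.5-fold or more between the media. At day 3, 0 of 55 measured members differed by 2-fold or more, against 3.52% of all 11835 measured genes. At day 6, 1 of 54 did, against 6.88% of 11888 genes. The member past 2-fold was Sec22c. At a lower bar of 1.5-fold (0.58 on the log2 scale), 5 of 55 members passed at day 3, where 15.6% of all genes did. Kdelr3, Sec13 and Tmed5 were higher and Sec16a and Srp54b lower in osteogenic medium. At day 6, 3 of 54 passed, where 20.4% of all genes did, with Sec22c and Kdelr3 higher and Sec16b lower. Dim genes vary more, so the same counts were taken over genes with a mean signal of at least 1000. There 4 of 50 members passed 1.5-fold at day 3 against 9.51% of 4533 genes, and 2 of 50 at day 6 against 14.8%. The day 3 count is thus near the share of genes of like brightness. At 2-fold, 0 of these 50 members passed at either day, against 1.24% of the 4533 genes at day 3 and 4.59% at day 6. The members' median log2 difference was 0.066 at day 3 and 0.10 at day 6, beside medians of 0.0091 and 0.012 over all measured genes. Values above zero were found for 34 of 55 members and 6031 of 11835 genes at day 3, and for 32 of 54 members and 6082 of 11888 genes at day 6.

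**Figure D1:**
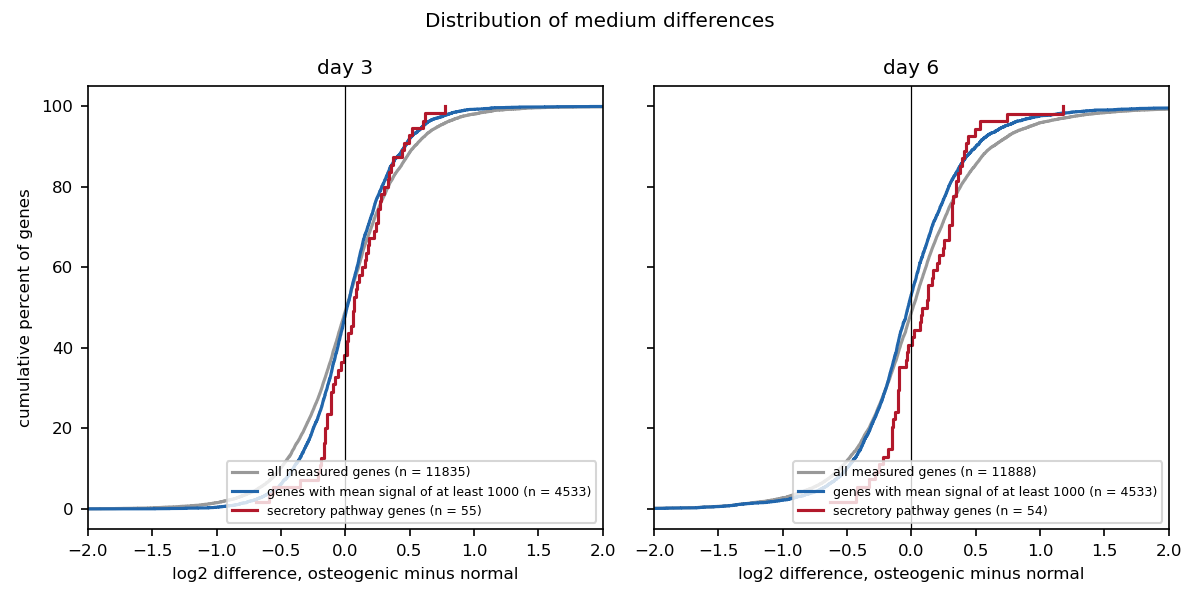
Cumulative percent of genes (vertical axis) by log2 difference between osteogenic and normal medium (horizontal axis) at day 3 and day 6, for all measured genes, for genes with a mean signal of at least 1000 and for the secretory pathway genes. The axis is cut at -2 and 2. The secretory pathway curve spans -0.70 to 0.77 at day 3 and -0.63 to 1.18 at day 6, and is steeper than that of all measured genes. At day 3 its quartiles were -0.11 and 0.26, against -0.24 and 0.26 for all measured genes and -0.19 and 0.22 for the brighter genes. A short list is also likely to span less than a long one.

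Small differences often pointed the same way at both days, which were measured on separate pairs of arrays. In 21 of 55 members (38.2%) both osteogenic arrays lay above both normal medium arrays, against 21.7% of 12467 measured genes. In 9 of 55 (16.4%) both osteogenic arrays lay below both normal medium arrays, against 20.5% of all genes. Among 54 members measured at both days, 27 had medium differences above zero at both and 15 below zero at both, against 32.0% and 30.7% of 11256 genes. These shares were not taken over genes of like brightness, and the median mean signal was 4309 for members and 599 for measured genes. Of the 12467 genes, 10256 were above the floor on every array, and values tied at the floor count on neither side. Whether the excess is particular to the members was not tested. Kdelr3 alone among members was higher by 1.5-fold or more at both days, as were 3.34% of all genes.

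**Figure D2:**
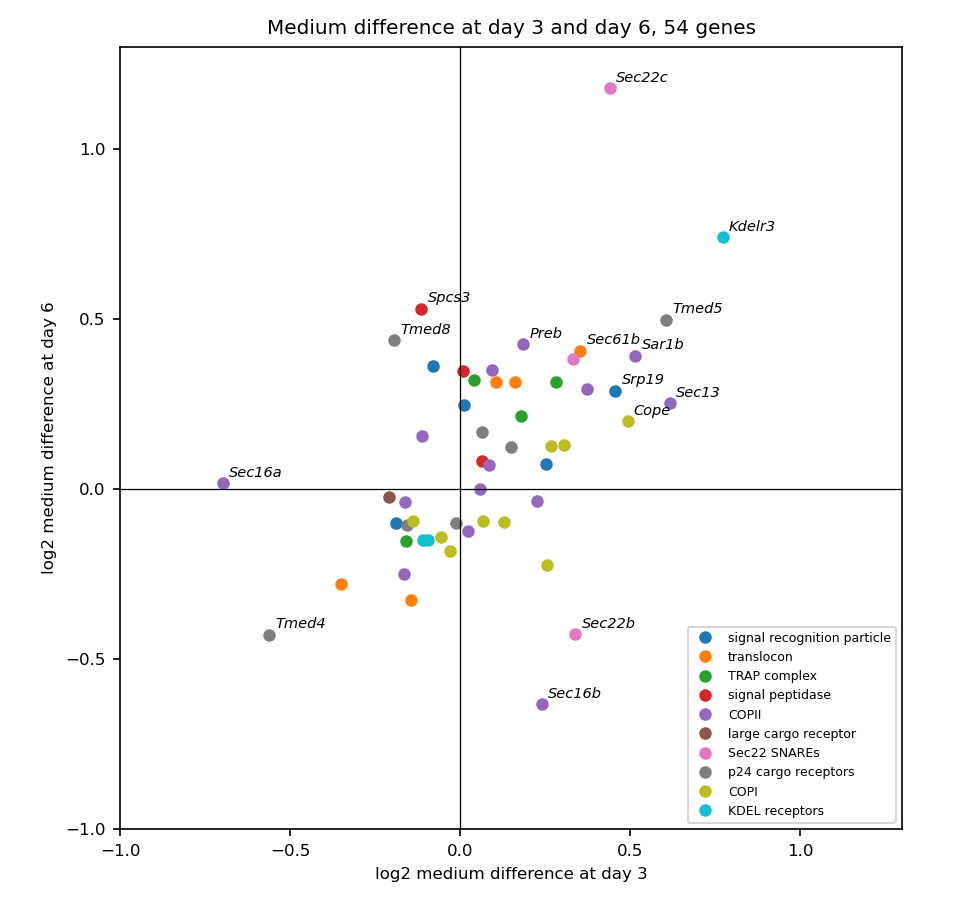
Log2 medium difference at day 3 (horizontal axis) against that at day 6 (vertical axis) for the 54 members above the floor on all arrays, coloured by role. Kdelr3 and Tmed5 lie to the upper right, Tmed4 to the lower left, and Sec22b and Sec16b to the lower right.

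An additive model of medium and day over the 4 arrays, which lets the days stand in for replicates, called no member. In limma with Benjamini-Hochberg adjustment over 12467 genes, 0 genes had an adjusted p under 0.05 for the medium and 1730 (13.9%) had an unadjusted p under 0.05. The latter included 4 of 55 members. Kdelr3 had a log2 difference of 0.76 ± 0.17 (SE) and an adjusted p of 0.243 in limma. The corresponding limma values were 0.81 ± 0.24 and 0.298 for Sec22c, 0.55 ± 0.17 and 0.308 for Tmed5, and -0.50 ± 0.17 and 0.336 for Tmed4. With each gene's own residual variance, 0 genes passed after adjustment and 845 had an unadjusted p under 0.05. The fit has 1 residual degree of freedom, into which a medium difference that changed from day 3 to day 6 also falls.

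Kdelr3 encodes a KDEL receptor, which binds escaped ER chaperones in the Golgi and returns them to the ER. Its signal was 3414 in normal and 5832 in osteogenic medium at day 3, and 3299 and 5515 at day 6. Both osteogenic arrays were above both normal medium arrays, by 1.71-fold at day 3 and 1.67-fold at day 6 (log2 differences 0.77 and 0.74). The gene has a single probe set, so no other probe set could be set beside it. Among all measured genes this ranked 504 of 11835 at day 3 and 914 of 11888 at day 6, counted from the highest. Its paralogues were not higher in osteogenic medium. Kdelr1 had signals of 8487, 7869, 8429 and 7597 in the order normal and osteogenic at day 3, then normal and osteogenic at day 6, with log2 differences of -0.11 and -0.15. Kdelr2 had 23737, 22222, 22665 and 20434 in the same order, with differences of -0.10 and -0.15, and its second probe set gave -0.016 and -0.060.

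The promoters of the members were searched for short sequences known to bind the transcription factors of the unfolded protein response and their relatives. Of 55 measured members, 47 had a promoter in the RefSeq table of GRCm38.p6, and the 250 bases before the gene start were read on both strands. The unfolded protein response element TGACGTGG was present for 4 of 47 members (8.51%), against 0.936% of 10047 measured genes and 0.603% of all 27025 genes with a promoter there. Its core ACGTG, which TGACGTGG contains, was present for 24 of 47 (51.1%), against 24.7% and 18.5%. The ER stress elements ERSE (CCAAT and CCACG, with 9 bases of any kind between them) and ERSE-II (ATTGG and CCACG, with 1 such base between) were found for 0 of 47 members, and in 0.149% and 0.0597% of measured genes. The cyclic AMP element TGACGTCA was found for Cope alone, or 2.13% of members against 2.92% of measured genes. The median G+C content of these windows was 58.4% for members and 59.6% for measured genes. A match describes the letters in the window and is no evidence of binding.

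The 4 promoters with TGACGTGG are shown because they include Kdelr3, with that of Sec22c, the member past 2-fold, beside them. Capitals mark TGACGTGG or its reverse complement and any ACGTG on either strand. The windows are chr15:79516158-79516407 on the plus strand for Kdelr3, chr3:123267246-123267495 on the plus strand for Sec24d, chr7:114254681-114254930 on the minus strand for Copb1, chr1:157506546-157506795 on the plus strand for the start of Sec16b that holds the match, and chr9:121705030-121705279 on the minus strand for Sec22c. Each is written 5′ to 3′ along the gene.
Kdelr3: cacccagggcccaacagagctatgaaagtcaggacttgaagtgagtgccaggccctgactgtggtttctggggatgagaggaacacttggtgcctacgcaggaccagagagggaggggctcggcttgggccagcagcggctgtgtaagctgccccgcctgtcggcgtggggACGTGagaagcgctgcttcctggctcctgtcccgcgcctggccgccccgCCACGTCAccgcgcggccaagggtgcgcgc
Sec24d: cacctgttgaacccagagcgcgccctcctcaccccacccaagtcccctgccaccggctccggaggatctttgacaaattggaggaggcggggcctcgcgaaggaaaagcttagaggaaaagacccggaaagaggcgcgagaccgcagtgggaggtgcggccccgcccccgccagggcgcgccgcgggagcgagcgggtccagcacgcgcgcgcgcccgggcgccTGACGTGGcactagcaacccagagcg
Copb1: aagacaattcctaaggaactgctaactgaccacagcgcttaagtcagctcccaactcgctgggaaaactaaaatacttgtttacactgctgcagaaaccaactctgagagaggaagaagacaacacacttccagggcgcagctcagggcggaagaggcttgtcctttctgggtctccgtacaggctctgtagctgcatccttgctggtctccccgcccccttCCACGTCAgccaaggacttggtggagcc
Sec16b: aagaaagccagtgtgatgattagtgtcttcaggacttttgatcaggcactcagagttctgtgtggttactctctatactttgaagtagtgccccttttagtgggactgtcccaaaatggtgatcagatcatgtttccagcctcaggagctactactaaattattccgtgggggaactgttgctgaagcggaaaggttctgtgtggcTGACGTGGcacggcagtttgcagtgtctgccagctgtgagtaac
Sec22c: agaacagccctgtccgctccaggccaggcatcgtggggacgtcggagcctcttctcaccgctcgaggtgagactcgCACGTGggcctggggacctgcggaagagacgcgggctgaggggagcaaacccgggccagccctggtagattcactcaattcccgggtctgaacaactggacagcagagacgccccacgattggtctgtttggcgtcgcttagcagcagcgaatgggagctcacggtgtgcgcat
The match began 30 bases before the start in Kdelr3, 26 in Sec24d, 28 in Copb1 and 44 in Sec16b. In Kdelr3 and Copb1 it lay on the opposite strand, and Kdelr3 held a further ACGTG 79 bases before the start. In Sec22c the forward ACGTG and its reverse complement overlap, forming CACGTG 174 bases before the start. Genes with the element differed in their values. The log2 medium differences at days 3 and 6 were 0.77 and 0.74 for Kdelr3, 0.086 and 0.069 for Sec24d, 0.30 and 0.13 for Copb1, and 0.24 and -0.63 for Sec16b. Over all members with a promoter, those with ACGTG had median log2 differences of 0.076 at both days (n = 24), and those without it 0.058 and 0.0013 (n = 23). The day 6 median of 0.0013 counts Srp54b, which was not measured at day 6, at zero. Without Srp54b that median is the midpoint of 0.0013 (Sec23b) and 0.17 (Tmed9), which is not below 0.076. The lower day 6 median of members without ACGTG thus rests on counting Srp54b.

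Among genes of the signal recognition particle, the ribonucleoprotein that delivers ribosomes to the ER membrane, 3 of 6 measured members were above zero at day 3 and 4 of 5 at day 6. Srp9, which with Srp14 forms the domain that slows translation, had signals of 4628 and 4380 in normal and osteogenic medium at day 3, and 4752 and 6105 at day 6. This probe set was highest on the osteogenic day 6 array, with log2 differences of -0.080 and 0.36, while the other Srp9 probe set gave -0.0015 and 0.10. Srp14 had 6900 and 6951, then 6949 and 8243, again high on that array (0.010 and 0.25), but its other 3 probe sets had day 6 differences of -0.034 to 0.044. Srp19, a subunit that helps the particle assemble, had 2183 and 2995, then 1982 and 2423, higher in osteogenic medium at both days (0.46 and 0.29). Srp68, part of the heterodimer it forms with Srp72, had 2810 and 3347, then 3368 and 3545, and its normal and osteogenic arrays overlapped. Srp72 had differences of -0.19 and -0.10. Srp54b, a copy of the gene for the signal-binding subunit, reached 87.4 on the normal day 3 array and was at the floor on the other arrays, so its day 3 difference is a bound of at least 1.51-fold lower.

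In the translocon, the subunits differed in direction. Sec61b encodes the beta subunit of the Sec61 channel, and its signal was 16253 and 20775 in normal and osteogenic medium at day 3, then 17207 and 22815 at day 6 (log2 differences 0.35 and 0.41). Sec61a1, the channel-forming alpha subunit, had 7667 and 8572, then 7997 and 9943 (0.16 and 0.31). For both genes each osteogenic array was above both normal medium arrays. At day 6, 5 of the 6 Sec61a1 probe sets were above zero, from 0.20 to 0.47, and the dimmest was at -0.15. At day 3 the dimmest was at -0.93, and the mean over the 6 probe sets was below zero. Sec61a2, the second alpha isoform, had 1275 and 1155, then 1404 and 1119, lower in osteogenic medium (-0.14 and -0.33), and its other probe set gave -0.19 and -0.29. Sec62 and Sec63 encode helpers of post-translational import. Sec62 had 5597 and 4390, then 5350 and 4408, lower at both days (-0.35 and -0.28), with all 3 probe sets that were above the floor throughout below zero at day 6 but 1 of them at 0.0070 at day 3. Sec63 had differences of 0.10 and 0.31, but its 5 probe sets ran from -0.76 to 0.13 at day 3 and from -0.30 to 0.68 at day 6, so no direction can be given.

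The translocon-associated protein (TRAP) complex sits beside Sec61 and assists some signal peptides. Ssr3 had signals of 14186 and 17241 in normal and osteogenic medium at day 3, then 14677 and 18260 at day 6, with log2 differences of 0.28 and 0.32. Its other probe set, of like signal, gave 0.074 and 0.16. Ssr4 had 13555 and 13950, then 12760 and 15949 (0.041 and 0.32), and Ssr2 had 3886 and 4398, then 4008 and 4655 (0.18 and 0.22). In these 3 genes both osteogenic arrays were above both normal medium arrays, while in Ssr1, at 10600 and 9492, then 9980 and 8980, both were below them (-0.16 and -0.15). Most of these differences are no larger than the probe error, and at day 3 the probe sets of Ssr1 ran from -0.95 to 0.14 and those of Ssr4 from -0.18 to 0.041.

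Signal peptidase removes the signal peptide, and its non-catalytic subunits are encoded by the Spcs genes. Spcs3 had 1882 and 1739 in normal and osteogenic medium at day 3, then 1905 and 2751 at day 6. It was high on the osteogenic day 6 array alone, with log2 differences of -0.11 and 0.53. Spcs2 had 5058 and 5092, then 5541 and 7052 (0.0097 and 0.35), high on the same array, and its other probe set gave 0.13 and 0.41. Spcs1 had 14649 and 15331, then 14743 and 15617, with differences of 0.066 and 0.083. Over these 4 groups of ER import together, 11 of 18 measured members were above zero at day 3, with a median of 0.026, and 13 of 17 at day 6, with a median of 0.29. Over all measured genes, 6031 of 11835 were above zero at day 3 and 6082 of 11888 at day 6, where the median was 0.012. Among genes with a mean signal of at least 1000, 2352 of 4533 were above zero at day 3 and 2118 at day 6. Their day 6 median was -0.027. Each member is counted by its brightest probe set, and at day 6 the probe sets of Srp14 and Sec63 differed in sign.

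The COPII genes lay on both sides of zero, with 10 of 14 above zero at day 3 and 9 of 14 at day 6. Sar1b encodes the GTPase that starts coat assembly, and its signal was 3905 and 5583 in normal and osteogenic medium at day 3, then 3769 and 4946 at day 6, higher in osteogenic medium at both (log2 differences 0.52 and 0.39). Its paralogue Sar1a had 6962 and 7080, then 7327 and 6725 (0.024 and -0.12), but 0.66 and 0.15 in its other probe set. Preb, the exchange factor that loads Sar1 with GTP, had 852 and 969, then 814 and 1093 (0.19 and 0.43), and its 3 probe sets were all above zero at both days. Sec13, of the outer coat, had 4657 and 7146, then 4683 and 5580, 1.53-fold higher at day 3 and 1.19-fold at day 6. Sec31a, its partner in the outer coat, had differences of -0.16 and -0.038.

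The inner coat, made of Sec23 and the cargo-binding Sec24 proteins, showed no common direction. Sec24a had 1562 and 2024, then 1838 and 2256, higher in osteogenic medium at both days (0.37 and 0.30). Sec24b (-0.11 and 0.16, with -0.55 at day 6 in its other probe set), Sec24c (0.23 and -0.036) and Sec24d (0.086 and 0.069) differed by less than the probe error. Sec23a, the isoform mutated in a craniofacial bone disorder, had 4647 and 4142, then 4186 and 3523 (-0.17 and -0.25), and Sec23b had 2172 and 2261, then 2371 and 2373 (0.058 and 0.0013). Sec23ip, which encodes a Sec23-binding protein, had differences of 0.093 and 0.35, but -0.064 at day 6 in its other probe set.

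The Sec16 genes, whose products organise ER exit sites, differed between the days. Sec16a had signals of 2431 and 1500 in normal and osteogenic medium at day 3, then 2186 and 2212 at day 6. It was low on the osteogenic day 3 array alone, with log2 differences of -0.70 and 0.017, and its other probe set gave -0.46 and 0.050. Sec16b had 1145 and 1353, then 1373 and 885, low on the osteogenic day 6 array, with differences of 0.24 and -0.63 from a single probe set. Mia3, the receptor for large cargo such as procollagen, had 4062 and 3516, then 4301 and 4229, with differences of -0.21 and -0.024. The 3 of its probe sets above the floor on all arrays lay between -0.21 and 0.13 at both days.

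Sec22b encodes a SNARE of ER and Golgi membrane fusion, and Sec22a and Sec22c its relatives. Sec22c had signals of 206 and 280 in normal and osteogenic medium at day 3, then 181 and 409 at day 6, 2.26-fold higher at day 6 (log2 differences 0.44 and 1.18). That difference rests on 1 probe set, since the other had signals of 129 and 65.5, then 83.9 and 97.5, with differences of -0.98 and 0.22. Sec22a had 701 and 881, then 761 and 991, higher at both days (0.33 and 0.38). Sec22b had 5603 and 7088, then 6269 and 4664. Its osteogenic arrays thus held both the highest and the lowest signal (0.34 and -0.43). The second Sec22b probe set gave -0.29 at day 3 and -0.42 at day 6, so only the day 6 difference was alike in both.

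The Tmed genes encode p24 proteins, which cycle between the ER and the Golgi as cargo receptors. Tmed5 had signals of 1603 and 2441 in normal and osteogenic medium at day 3, then 1551 and 2191 at day 6, 1.52-fold and 1.41-fold higher. Both osteogenic arrays were above both normal ones, and its 3 measured probe sets ran from 0.38 to 0.61 at day 3 and from 0.50 to 0.88 at day 6. Tmed4 differed the other way, with 2674 and 1810, then 2650 and 1969 (-0.56 and -0.43), below both normal medium arrays at each day. Tmed8 had 555 and 485, then 464 and 629 (-0.19 and 0.44). Tmed9 had 3940 and 4118, then 4545 and 5105, with differences of 0.064 and 0.17, while its second probe set gave 0.71 and 0.78. Tmed7 had 4482 and 4449, then 4942 and 4607 (-0.011 and -0.10). Its other probe sets above the floor on all arrays ran from 0.11 to 0.30 at day 3 and from -0.14 to 0.12 at day 6. Tmed3 (0.15 and 0.13) and Tmed10 (-0.16 and -0.10) differed by less than the probe error, though a dim second probe set of Tmed3 gave -1.37 and 0.37.

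In the COPI coat, 6 of 9 genes were above zero at day 3 and 3 of 9 at day 6, with medians of 0.13 and -0.095. Cope, the epsilon subunit, had signals of 5200 and 7317 in normal and osteogenic medium at day 3, then 6097 and 6999 at day 6, higher in osteogenic medium at both days (0.49 and 0.20). Copg1 had 4068 and 4852, then 4482 and 3836 (0.25 and -0.22), but its second probe set gave -0.53 at day 3. Its paralogue Copg2 had 1598 and 1451, then 1794 and 1681 (-0.14 and -0.094), and Copz2 had 5807 and 5687, then 5634 and 4964 (-0.030 and -0.18). The remaining subunits Copa, Copb1, Copb2, Copz1 and Arcn1 lay between -0.14 and 0.30 at both days. Dimmer probe sets of Copa and Arcn1 reached -0.74 and -0.28 at day 6.

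**Figure D3:**
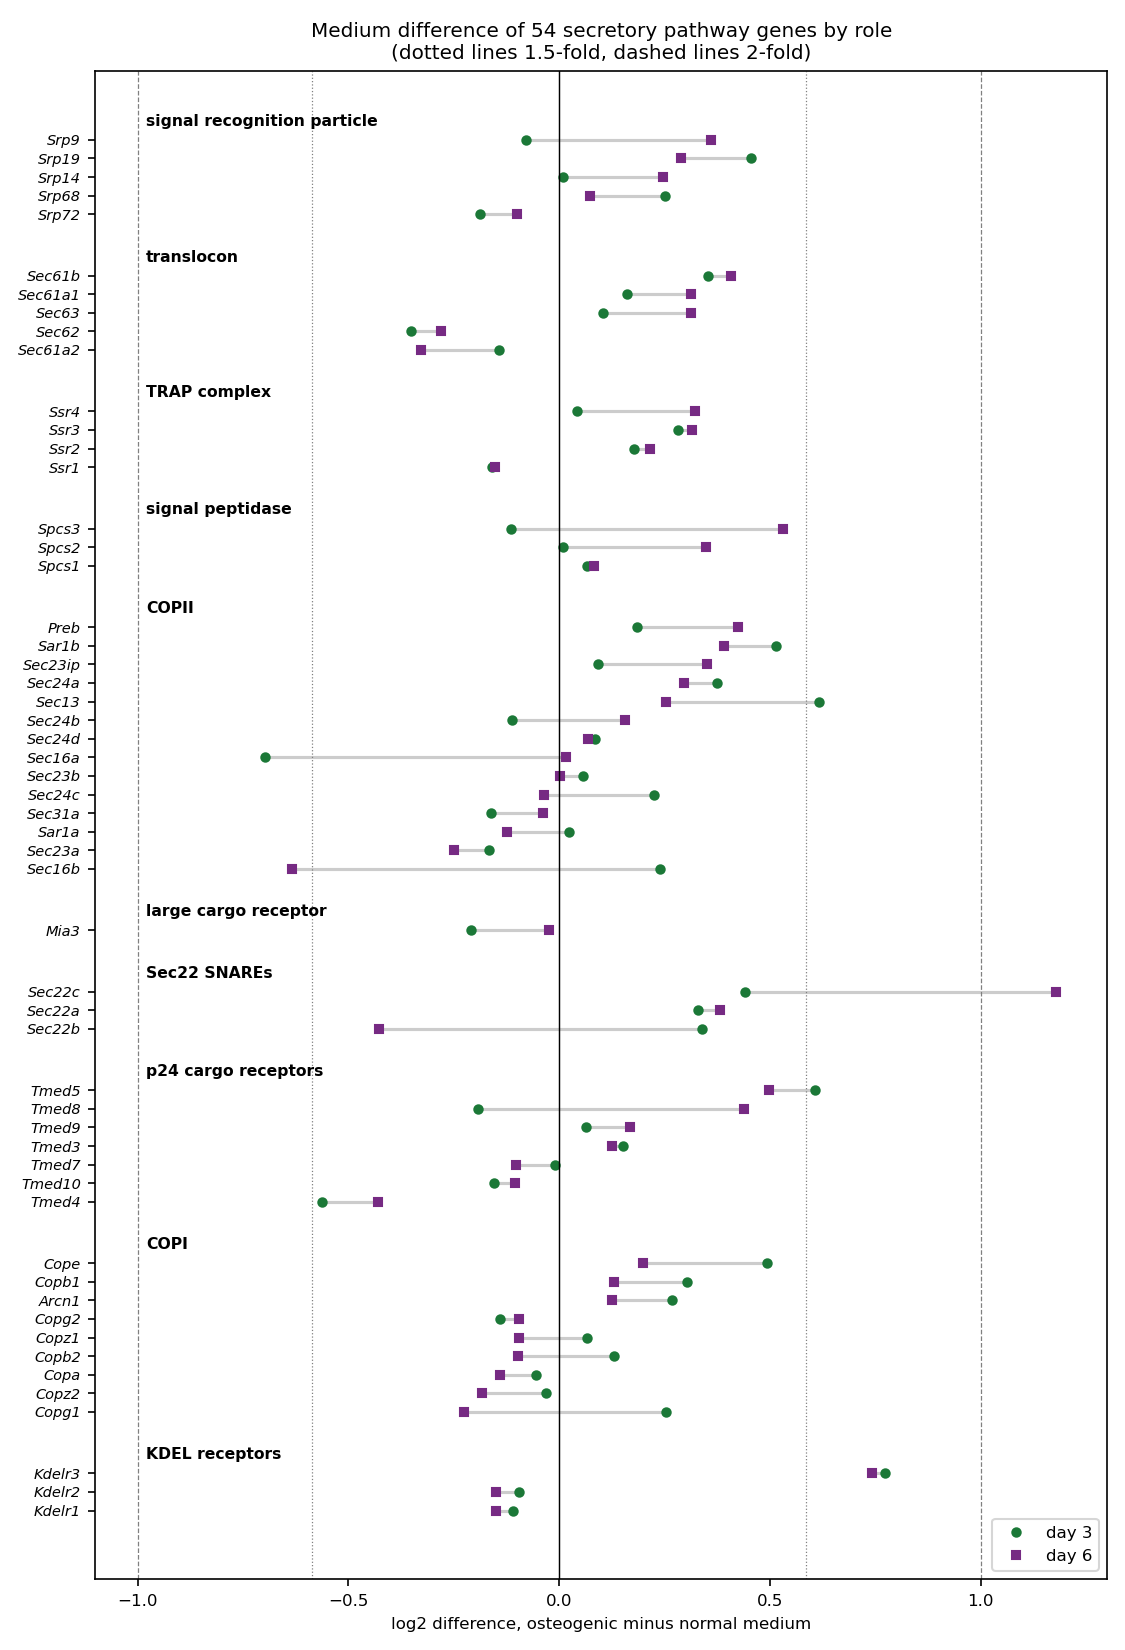
Log2 difference between osteogenic and normal medium (horizontal axis) at day 3 (circles) and day 6 (squares) for each of 54 members, grouped by role, with lines at 1.5-fold and 2-fold. Only the day 6 value of Sec22c, 1.18, passes the 2-fold line.

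**Figure D4:**
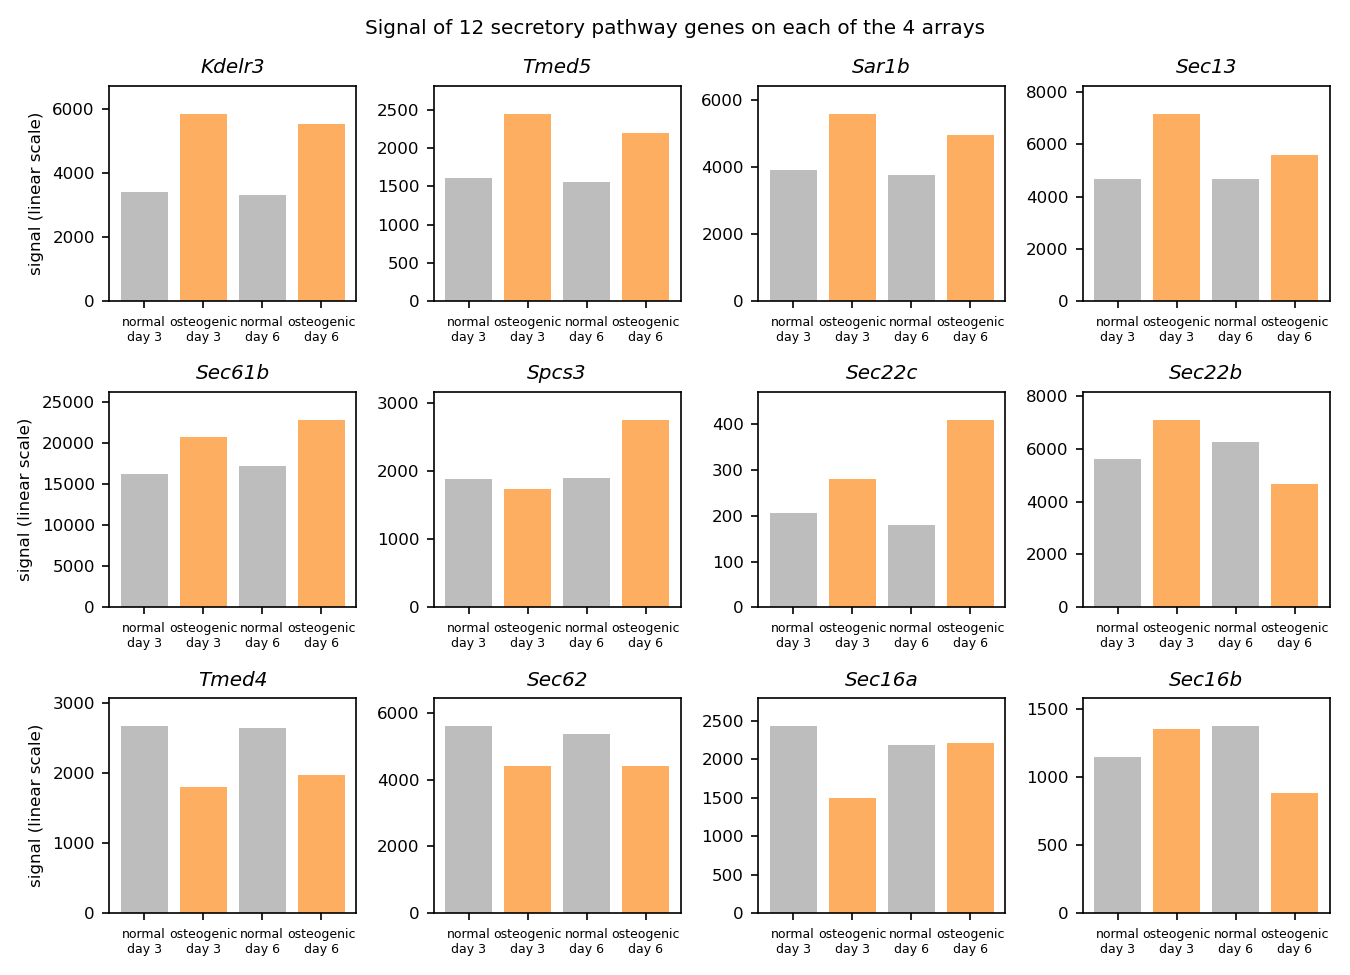
Signal on a linear scale (vertical axes) on each of the 4 arrays for 12 members, with normal medium in grey and osteogenic medium in orange, 1 array per bar. Kdelr3, Tmed5, Sar1b and Sec61b are higher in osteogenic medium at both days, Tmed4 and Sec62 lower, and Sec16a is low on the osteogenic day 3 array alone.

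Probe sets of the same gene gave a check on these small differences. Of 29 members with several probe sets above the floor on all arrays, 18 had all of them on 1 side of zero at day 3 and 20 at day 6. Signs differed at day 3 for 11 members, among them Arcn1, Copg1, Sec22b, Sec22c, Sec62 and Ssr1, and at day 6 for 9, among them Mia3, Sar1a, Sec63 and Srp14. Kdelr3, Tmed4, Sar1b, Sec13, Sec61b, Srp19, Cope and Spcs3 rest on a single probe set of their own above the floor. Probe sets shared with other genes gave further values that cannot be assigned to a single gene. The 6 probe sets annotated to both Tmed2 and Gm10698 lay between -0.13 and 0.057 at day 3 and between 0.17 and 0.31 at day 6. A probe set annotated to Sec61g, the gamma subunit of the channel, with Gm11575 and Gm10177 had differences of 0.27 and 0.52. Another, annotated to Sec61b and Gm10320, had 0.66 and 0.85. The 4 probe sets annotated to Tmed10 and its pseudogene lay between -0.20 and 0.13 at day 3 and between 0.039 and 0.57 at day 6, above zero where the own probe set of Tmed10 was below it. Probe sets shared by Srp54a and its copies lay between -0.35 and 0.17 at day 3 and between -0.92 and 0.20 at day 6.

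**Figure D5:**
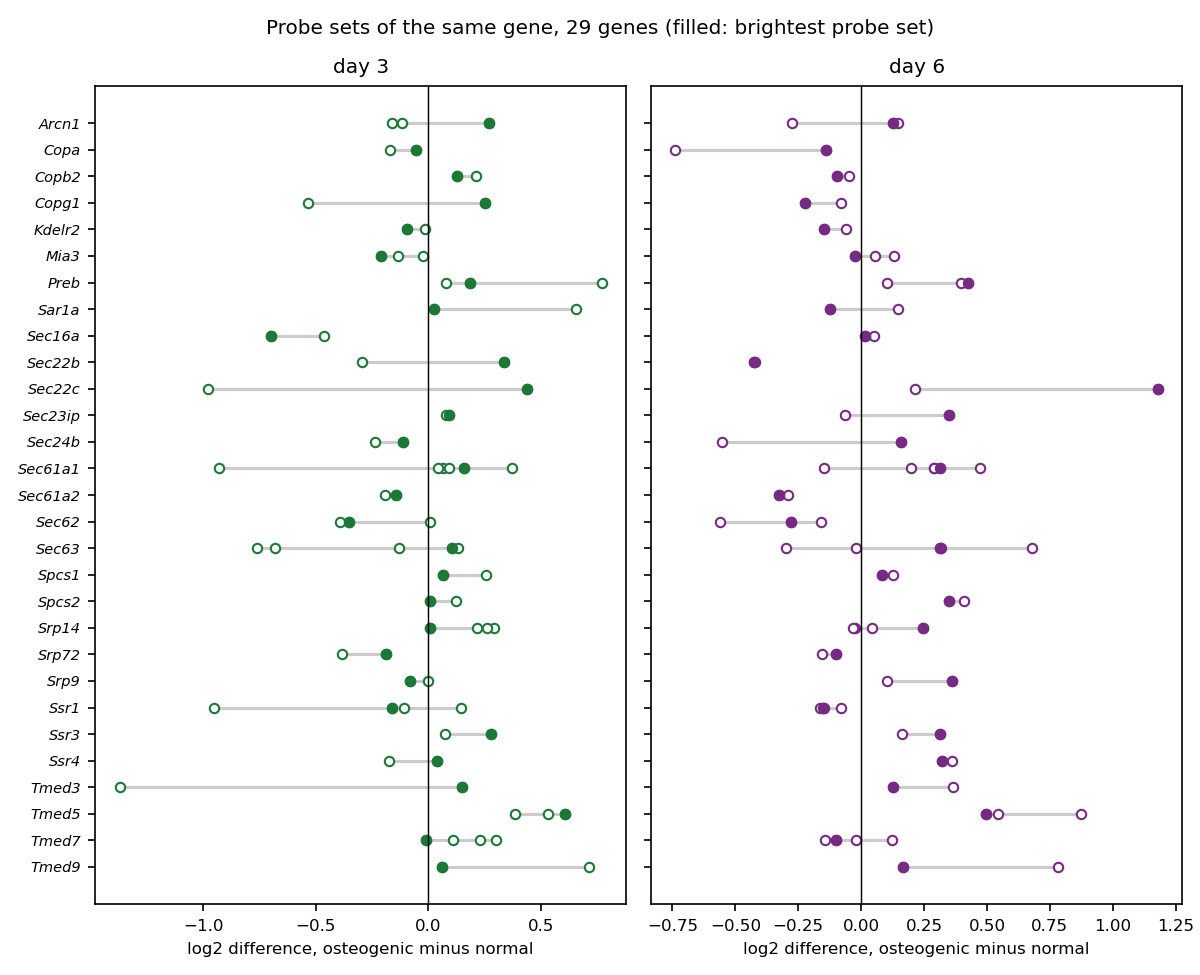
Log2 medium difference (horizontal axes) at day 3 and day 6 of every probe set above the floor on all arrays, for 29 members with several, with the brightest probe set filled. The probe sets of Tmed5 lie together above zero, whereas those of Sec63 and Sec22c are spread over 0.98 and 0.96 at day 6.

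The days were compared within each medium, on the same arrays as above. In normal medium 0 of 55 members differed by 2-fold between day 6 and day 3, against 1.46% of 11723 genes, and only Srp54b passed 1.5-fold, by a bound, against 7.84%. In osteogenic medium 0 of 54 passed 2-fold, against 6.26% of 11925 genes, and 3 passed 1.5-fold, against 19.1%. Spcs3 (0.66) was higher, and Sec16b (-0.61) and Sec22b (-0.60) lower at day 6. Of 9 COPI genes 8 were below zero, with a median of -0.11, beside 5972 of 11925 measured genes. Among genes with a mean signal of at least 1000, which include all 9, 2619 of 4533 were below zero, with a median of -0.064. With values under the floor set to it, the medium difference itself changed by 1.5-fold or more for 7 of 55 members, against 21.8% of 12467 genes. The changes were 0.74 for Sec22c, 0.71 for Sec16a, 0.64 for Spcs3, 0.63 for Tmed8, -0.87 for Sec16b and -0.77 for Sec22b. Srp54b, which also counts, was under the floor on both day 6 arrays, so its change was not measured and 6 members remain. No member changed by 2-fold, against 7.33% of all genes.

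Neighbouring genes of the pathway were taken from 5 further lists. Among 18 genes of the SRP receptor, the catalytic signal peptidase subunits and oligosaccharyltransferase, which attaches N-glycans, 14 were above zero at day 6, with a median of 0.29, and 9 at day 3, with a median of 0.037. Over all measured genes 6082 of 11888 were above zero at day 6 and 6031 of 11835 at day 3. Stt3b, an oligosaccharyltransferase subunit, had signals of 10935 and 6722 in normal and osteogenic medium at day 3, then 9332 and 8269 at day 6. It was lower at both days (-0.70 and -0.17). Sec11c, a catalytic subunit of signal peptidase, had signals of 681 and 1430 in normal and osteogenic medium at day 3, then 844 and 1899 at day 6. It was 2.10-fold and 2.25-fold higher, and was the gene of this list past 2-fold at both days. Tmem258, an oligosaccharyltransferase subunit, had 66.3 and 89.4, then 43.3, which is under the floor, and 125, and was at least 2.16-fold higher at day 6. At 2-fold, 1 of the 18 genes passed at day 3 and 2 at day 6, against 3.52% and 6.88% of all measured genes. None of 15 genes of tail-anchored and membrane protein insertion, 34 of ER export and fusion, or 9 of the ARF cycle that recruits COPI passed 2-fold at either day. Over all measured genes, 3.52% passed at day 3 and 6.88% at day 6, so in lists this small a count of 0 says little. Their day 6 medians were -0.15, 0.080 and 0.027, and their day 3 medians 0.046, 0.092 and 0.035.

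The last list held transcription factors that act on secretory genes. Of 9 measured at day 3, 0 were higher and 2 lower by 2-fold, against 1.97% and 1.55% of all measured genes. Of 9 measured at day 6, 2 were higher and 0 lower, against 4.1% and 2.78%. At 1.5-fold, 0 were higher and 3 lower at day 3, against 8.45% and 7.13%. At day 6, 4 were higher and 0 lower, against 11.2% and 9.16%. Those 4 were Ddit3, Atf6, Atf4 (1.90-fold) and Xbp1 (1.76-fold). Over the whole list the median log2 differences were -0.055 and -0.017. Ddit3, a factor of the stress response, had signals of 1279 and 1109 in normal and osteogenic medium at day 3, then 1423 and 6900 at day 6, and Atf6, an ER membrane-bound sensor, had 608 and 586, then 626 and 1258 (2.01-fold at day 6). Creb3l1, a membrane-bound factor of bone matrix secretion, had 3691 and 1777, then 2785 and 2429, with log2 differences of -1.05 and -0.20. Creb3l3 was at the floor on the osteogenic day 3 array, where its bound was -1.16.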

How the data were processed

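RNA of MC3T3-E1 cells was purified on a column with DNase treatment, amplified by 3′ in vitro transcription and run on 4 arrays, 1 per group, per the labels' protocols. The authors deposited 1 intensity per probe set on a linear scale. On every array the mean without the lowest and highest 2% of values was 500, the mark of scaling before deposit. The authors' software and summary method were not given in the sources used here. Of 45101 probe sets, 64 were controls, 34945 carried 1 gene symbol in GEO's annotation, 932 several symbols and 9160 no symbol in the table used. All 58 members matched NCBI RefSeq names of GRCm38.p6 by Entrez ID.

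Arrays were shifted to a common 75th percentile, values under the pooled 50th percentile were set to that floor, and log2 was taken. Each gene's value is that of the probe set brightest by mean log2 signal. With 1 array per group, differences were counted at 2-fold, and at 1.5-fold as a bar added after the data were seen. The medium over both days was tested with limma 3.58.1 in R 4.3.3. Other steps used Python 3.11.15 with pandas 2.3.3. The steps were tested on simulated arrays with planted medium differences larger than any seen in a member, so recovery of small differences was not tested. Members, lists and motifs were chosen with earlier results of these data known. The rule for named genes allows every member, gives all 4 signals for members past 2-fold between media and, in each role group, for the 3 with the largest absolute day 6 difference and the 1 nearest zero. The 4 signals of other members were added after their values were seen. The rule takes up to 4 genes past 2-fold from each further list. Atf4, Xbp1 and Stt3b were named in addition, after their values were seen. Alternatives changed the scaling, the floor, the filter and the choice of probe set. Precision is limited by the number of arrays.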

Additional observations from a re-analysis of the deposited data

Results flagged for a closer look

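For 5 members above the floor on all 4 arrays, the medium difference had opposite signs at day 3 and day 6 and changed by at least 0.58 on the log2 scale. With 1 array per group, the change between days was not tested. It was -0.87 for Sec16b (0.24 at day 3, -0.63 at day 6), -0.77 for Sec22b (0.34 and -0.43), 0.71 for Sec16a (-0.70 and 0.017), 0.64 for Spcs3 (-0.11 and 0.53) and 0.63 for Tmed8 (-0.19 and 0.44). The day 6 value of Sec16a and the day 3 values of Spcs3, Tmed8 and Sec16b are smaller than the probe error of 0.30 at day 3 and 0.29 at day 6. The second probe set of Sec22b had -0.29 at day 3, and that of Sec16a -0.46.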

How the results depend on the processing

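Of 177 values of member counts, medians and the additive fit recomputed under alternatives, 151 stayed within 1.5 times the count reported or within 0.1 of the median. With neither floor nor filter, members past 2-fold numbered 1 at day 3, 5 at day 6, 3 between days in normal medium, 4 in osteogenic medium and 3 in the change between days, and those past 1.5-fold numbered 7 at day 6, 4 in normal and 7 in osteogenic medium. With each gene's second brightest probe set, members past 2-fold numbered 1 at day 3, 0 at day 6 and 3 in the change, and past 1.5-fold 9 at day 3, 6 at day 6, 7 in normal and 5 in osteogenic medium. The count past 2-fold at day 6 was also 0 with averaged probe sets and with genes of mean signal of at least 1000, a filter added after the data were seen, since Sec22c is lost. The count past 1.5-fold at day 3 was 2 after quantile normalization (1 higher, 1 lower), against 5 (3 higher, 2 lower). In normal medium between days it was 0 with a common median, quantile normalization, the floor at the 60th percentile, genes above the floor on every array or of mean signal of at least 1000, where Srp54b drops out or is scaled below the bar, and 1 member passed 2-fold with the floor at the 40th percentile. In the change it was 4 (2 higher, 2 lower) with a common median or mean signal of at least 1000, against 7 (5 higher, 2 lower, with Srp54b counted). The day 3 median became -0.0034 with averaged probe sets, and the median change, 0.0069, was below zero in 6 of 11 alternatives. Kdelr3 stayed between 0.73 and 0.80 at day 3 and between 0.69 and 0.74 at day 6. It has a single bright probe set, so changes of floor, filter or probe set choice could hardly move it. The additive limma fit called 0 members in every alternative run, with lowest adjusted p from 0.102 to 0.695, and 0.713 with each gene's own variance. Among genes of mean signal of at least 1000 it called 8 genes, none of them members. Replicate numbers pair nothing, because each group has 1 array. The additive fit compares the media within each day and so pairs the arrays by day only. The causes of these shifts were not tested beyond those named.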
